A study of Homo sapiens with 3 samples.

Results

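Genes that encode proteins of fetal or adult blood plasma were followed in a co-culture of 2 human colorectal carcinoma lines. They were the 10 genes of 33538 in the tables with the symbols ALB, AFP, FGA, FGB, FGG, SERPINA1, SERPINA6, ITIH2, APOH and TTR, and all 10 had unique molecular identifiers (UMIs, each standing for one captured transcript molecule) in all 3 libraries. The genes were selected on their levels and their joint presence in cells of these libraries, so levels and co-expression are given below as description, without a test. The comparison of lipopolysaccharide (LPS) with control is the only one tested.

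The study surveyed an in vitro model of the intestinal epithelium by single-cell RNA sequencing. Caco-2 cells (passage 8), which differentiate towards enterocytes when confluent, and HT29 cells (passage 13), which can take up a mucus-secreting fate, were grown together at a seeding ratio of 9:1 on the apical side of 3 Transwell inserts. The 2 control inserts were harvested on day 23 without treatment (control 1 and control 2), and the third received 1 ng/ml of Escherichia coli O111:B4 LPS apically on day 22 for 24 hours and was harvested on day 23 (LPS). Cells were thawed before capture, and dead cells were removed from samples of low viability. Each insert gave 1 library, so there are 2 control replicates and a single LPS library, all from the same passages of the same lines; no source says that the inserts were set up on separate occasions.

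The tables held 5811, 6495 and 6838 cell barcodes with 33893707, 27934953 and 24185467 UMIs for control 1, control 2 and LPS. After minimums on UMIs and genes, a maximum on mitochondrial UMIs and removal of likely doublets, 4633, 4989 and 4850 cells remained, with medians of 5459, 4103 and 3573.5 UMIs. Depth was highest in control 1 and lowest in LPS. For some genes the share of cells with a UMI is therefore given also after thinning. Each cell was then thinned to 1 fixed number of UMIs, the minimum that cells of control 1 had to reach. Pairs of libraries shared 29 barcodes in all, and in 0 of them were the counts identical.

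Plasma proteins are made mainly by hepatocytes. In the embryo AFP is the dominant serum protein, made by yolk sac and fetal liver, and ALB takes its place around birth. Both genes, like those of fibrinogen, the serpins and TTR, are driven by short promoters that bind liver-enriched factors such as C/EBP and FOXA, several of which are also present in the gut. Caco-2 cells are long known to secrete apolipoproteins and to keep features of fetal intestine.

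The 10 genes lie at 6 places in the genome (GRCh38). ALB (ENSG00000163631, chr4:73397114-73421482, plus strand) is followed after 9655 bp by AFP (ENSG00000081051, chr4:73431138-73456174, plus strand), the gene of alpha-fetoprotein. The fibrinogen genes form a second cluster on chromosome 4, with FGB (ENSG00000171564, beta chain, chr4:154563011-154572807, plus strand), FGA (ENSG00000171560, alpha chain, chr4:154583126-154590742, minus strand) and FGG (ENSG00000171557, gamma chain, chr4:154604134-154612967, minus strand) separated by 10318 and 13391 bp. SERPINA6 (ENSG00000170099, corticosteroid-binding globulin, chr14:94304248-94323389) and SERPINA1 (ENSG00000197249, alpha-1-antitrypsin, chr14:94376747-94390693) lie 53357 bp apart on the minus strand of chromosome 14. ITIH2 (ENSG00000151655, a heavy chain of the inter-alpha-trypsin inhibitor that coats hyaluronan) lies at chr10:7703316-7749520 on the plus strand, APOH (ENSG00000091583, beta-2-glycoprotein I, which binds phospholipid) at chr17:66212033-66256525 on the minus strand, and TTR (ENSG00000118271, the carrier of thyroxine and of retinol-binding protein) at chr18:31557009-31598833 on the plus strand.

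Promoter windows from RefSeq (GRCh38.p14) were found for 8 of the 10 genes, ITIH2 and TTR being the other two. A search of 250 bases upstream of the start found the core of a C/EBP site, TTNNGCAA on either strand, in 4 of those 8 genes (ALB, AFP, FGA and FGB), while 9.05% of all 35116 promoter windows held it. The search found a FOXA core, TGTTTNC on either strand, in 4 genes (ALB, FGA, SERPINA1 and SERPINA6, 15.5% of all). In SERPINA1 the match lay within an annotated exon. In SERPINA6 the match 38 bases upstream also began in an exon, while that 150 bases upstream lay outside the gene model. The shares of all are by window, and of the 10 windows of the 8 genes, 5 held the C/EBP core and 4 the FOXA core. CTGGGAA, the element of genes that answer to interleukin-6, was found on either strand in FGB and FGG (9.15% of all), TATAAA on the gene's strand in AFP (6.80% of all), and CAAAGTCCA, an HNF4 site, in 0 of the 8 (0.325% of all). In FGG the bases from 150 to 33 upstream lay within an annotated exon. Its CTGGGAA began 161 bases upstream, where exons were not checked. Below are 118 bases of 3 of these promoters, from 150 to 33 bases upstream of the RefSeq start and in the direction of the gene, shown because they carry the C/EBP core within these bases. Capitals mark it, on the gene's strand in ALB and FGA and on the other strand in FGB. The windows are chr4:73404137-73404254 (plus, ALB), chr4:154590775-154590892 (minus, FGA) and chr4:154562861-154562978 (plus, FGB), and none of them overlaps an annotated exon. That of ALB lies in an intron of a longer GENCODE transcript of the same gene, and those of FGA and FGB lie outside the gene models.
ALB: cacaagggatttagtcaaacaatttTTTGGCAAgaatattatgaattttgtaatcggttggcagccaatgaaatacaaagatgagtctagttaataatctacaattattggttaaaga
FGA: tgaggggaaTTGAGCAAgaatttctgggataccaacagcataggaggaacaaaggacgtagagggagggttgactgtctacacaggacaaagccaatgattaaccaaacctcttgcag
FGB: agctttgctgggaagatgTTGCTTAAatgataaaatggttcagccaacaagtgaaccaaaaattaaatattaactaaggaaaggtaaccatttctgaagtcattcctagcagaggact
The C/EBP core began 125 bases upstream of the start in ALB, 141 in FGA and 132 in FGB. In AFP it began 221 bases upstream, outside the stretch shown for the others. These letters are a description of the sequence and no binding was measured.

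All 10 genes were measured in every library, with a UMI in some cells of each. Levels are given as CPM, the UMIs of a gene per 1000000 UMIs of all genes summed over the kept cells of a library, and are compared within a gene. ALB stood at 259.7 and 273 CPM in the controls (266 ± 9.20, mean ± SD, n = 2) and 315 in LPS. AFP stood at 316 and 210.5 CPM in the controls (263 ± 74.3, n = 2) and 329 in LPS, so the 2 controls lay farther apart for AFP than for ALB. Among the fibrinogen chains, which are secreted as 1 hexamer, FGA was at 6.11 and 5.00 CPM in the controls and 5.83 in LPS, and FGB at 14.4 and 15.4 in the controls and 14.1 in LPS. FGG was at 94.8 and 85.9 CPM in the controls (90.3 ± 6.29, n = 2) and 55.8 in LPS, the LPS library lying below both. SERPINA1, an inhibitor of neutrophil elastase that enterocytes also make, was at 1684 and 1504 CPM in the controls and 1520 in LPS. SERPINA6 was at 11.5 and 10.4 CPM in the controls and 14.7 in LPS, and ITIH2 at 24.7 and 17.5 in the controls and 18.0 in LPS. APOH was at 75.3 and 68.8 CPM in the controls and 66.9 in LPS, and TTR at 384 and 299.8 in the controls and 304 in LPS. For SERPINA1, ITIH2, TTR and FGA the LPS value thus fell between the 2 controls.

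The genes differed widely in how their UMIs were spread over cells. ALB UMIs were held by few cells: 14.1%, 14.3% and 11.8% of cells in control 1, control 2 and LPS had 1 or more, and 27, 44 and 30 cells (0.583%, 0.882% and 0.619%) held 50% of all ALB UMIs. The richest single cells carried 375, 203 and 244 ALB UMIs, and the top 1% of cells held 62.8%, 53.4% and 62.9% of the gene's UMIs. Albumin RNA was thus concentrated in very few cells of each library. AFP was less so, with a UMI in 29.2%, 19.7% and 20.9% of cells and 2.46%, 1.92% and 1.63% of cells holding 50% of its UMIs. SERPINA1 lay at the other end, with a UMI in 92.0%, 86.0% and 87.3% of cells and 18.7%, 16.6% and 15.9% holding 50%. TTR was found in 46.4%, 37.2% and 35.7% of cells, and FGG in 21.0%, 17.8% and 13.2%. FGA, the sparsest of the 10, was found in 3.32%, 2.18% and 2.02%. These shares are without thinning, so they are not compared between libraries of unlike depth. The plot of these shares shows the gap between cells with a UMI and cells that hold 50% of the UMIs to be widest for ALB.

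**Figure D1:**
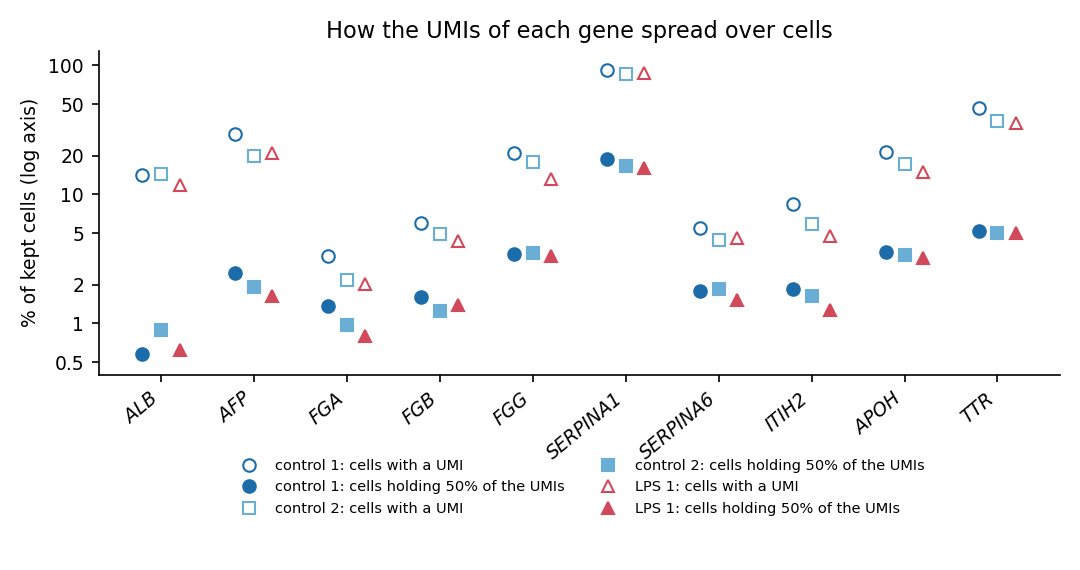
Share of kept cells (y, %, log axis) for each of the 10 genes (x) in control 1, control 2 and LPS. Open symbols are cells with 1 or more UMIs of the gene and filled symbols the smallest set of cells that holds 50% of its UMIs; ALB falls below 1% on the second measure in all 3 libraries, SERPINA1 lies above 15%.

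To ask which of the lines carried the genes, each cell was assigned by the balance of its UMIs on the study's lists of genes specific to HT29 (398 of 411 found in the tables) and to Caco-2 (754 of 771 found), with the 10 genes taken out. This gave 3929, 3977 and 3960 Caco-2-line cells and 655, 941 and 794 HT29-line cells, and left 49, 71 and 96 unassigned. Median depth was similar between the lines within a library, at 5468, 4204 and 3564 UMIs in Caco-2-line cells and 5396, 3758 and 3547 in HT29-line cells. Of the 10 genes, 9 were more than 2 times higher in Caco-2-line cells in every library, the exception being APOH. The share of all genes past that fold is not given here, and the 10 were selected on their levels, so the count is description only. Ratios below carry 95% intervals that cover counting error only, as do all intervals and count floors given here.

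ALB was at 303, 328 and 375 CPM in Caco-2-line cells of control 1, control 2 and LPS and at 6.58, 9.32 and 49.3 in HT29-line cells. In LPS, 114 of the 159 ALB UMIs of HT29-line cells came from 1 cell, and without the richest cell of each line the HT29-line level in LPS was 14.01 CPM. Whether that cell was a doublet was not tested. After thinning, 10.5%, 12.9% and 10.3% of Caco-2-line cells and 0.763%, 0.976% and 2.37% of HT29-line cells had an ALB UMI. Without removal of doublets the HT29-line level was 43.1, 13.5 and 47.6 CPM, and with no cell left unassigned it was 16.2, 18.0 and 46.6 CPM. AFP was at 363, 254 and 393 CPM against 25.8, 8.06 and 34.1, which is 14.1-, 31.6- and 11.5-fold. In the HT29-line cells of LPS, 42 of the 110 AFP UMIs came from 1 cell, and the AFP level there was 21.1 CPM without it and 7.93 CPM with the short marker lists. FGG was at 110.9, 103 and 66.7 CPM in Caco-2-line cells against 3.41, 3.02 and 5.90 in HT29-line cells, the latter resting on 14, 12 and 19 UMIs (ratios of 32.5, 19.3 to 59.5; 34.2, 19.5 to 66.3; and 11.3, 7.21 to 18.8). The other sparse genes left almost no UMIs in HT29-line cells: FGA had 1, 2 and 2, FGB 2, 5 and 3, ITIH2 5, 1 and 2, and SERPINA6 1, 0 and 6 UMIs in control 1, control 2 and LPS. In control 2, where HT29-line cells had 0 SERPINA6 UMIs, the lower end of the interval put SERPINA6 13.5-fold higher in Caco-2-line cells. In LPS its ratio was 9.39 (4.26 to 25.8).

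SERPINA1 and TTR also had UMIs in HT29-line cells, and how far free RNA adds to them was not tested. SERPINA1 was at 1867, 1717 and 1708 CPM in Caco-2-line cells and 607, 466 and 598 in HT29-line cells, a ratio of 3.08, 3.69 and 2.85. TTR was at 439, 358 and 359 CPM against 47.0, 23.4 and 41.0, a ratio of 9.32, 15.3 and 8.77. With the short marker lists the HT29-line level of TTR was lower, at 21.7, 21.9 and 18.5 CPM. Alpha-1-antitrypsin therefore showed the smallest ratio of the 9 genes that were higher in Caco-2-line cells.

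APOH went against this pattern. It was at 76.1, 67.6 and 67.9 CPM in Caco-2-line cells and 70.7, 73.0 and 65.2 in HT29-line cells, ratios of 1.08 (0.951 to 1.22), 0.925 (0.815 to 1.05) and 1.04 (0.899 to 1.21). A larger share of HT29-line than of Caco-2-line cells carried it: after thinning, 14.7%, 15.6% and 12.3% of HT29-line cells had an APOH UMI, against 11.05%, 9.47% and 8.80% of Caco-2-line cells, and without thinning 32.98%, 24.9% and 20.4% against 19.1%, 15.2% and 13.7%. The richest HT29-line cell held 4 APOH UMIs in control 1 and the richest Caco-2-line cell 48. In cells rather than shares, 216, 234 and 162 HT29-line and 752, 606 and 542 Caco-2-line cells held an APOH UMI without thinning.

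**Figure D2:**
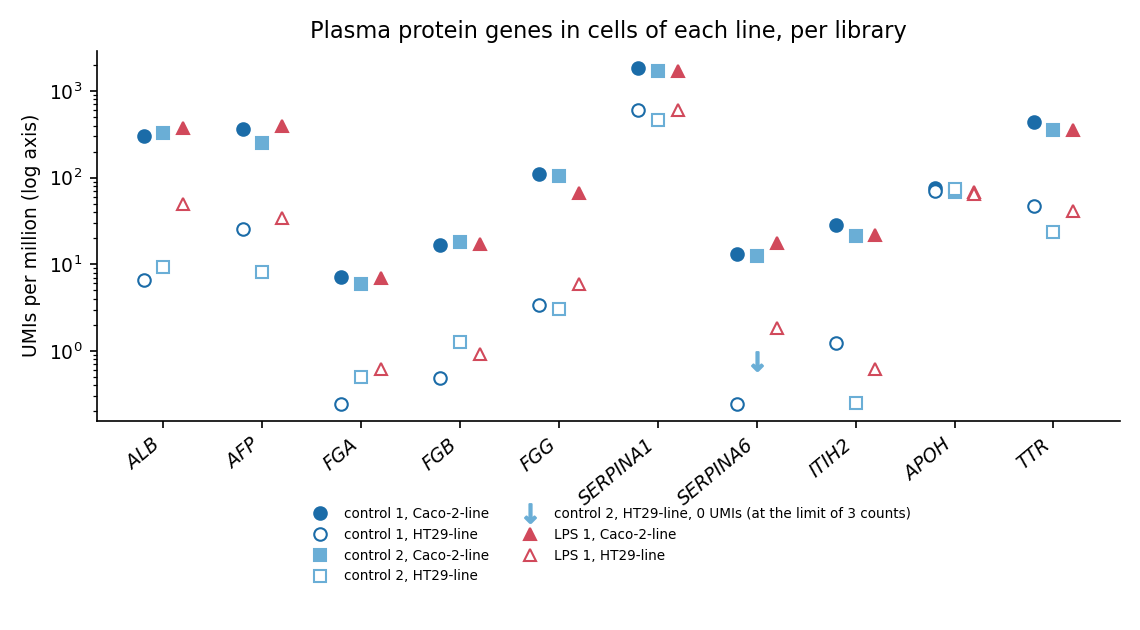
Level of each gene (y, CPM, log axis) in Caco-2-line cells (filled) and HT29-line cells (open) of control 1, control 2 and LPS. An arrow marks a sum of 0 UMIs at the limit of 3 counts; the open and filled symbols coincide for APOH and lie apart for the other 9 genes.

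Clustering of all kept cells on genes other than these 10 gave 11 clusters. They were named from marker genes as intestinal stem cell (ISC)-like (cluster 0, 3246 cells, led by DKK1, PLA2G2A and OLFML3, with DKK1 and ANKRD1 of its top 10 being markers of TA-like cells), undifferentiated HT29 (U-HT29)-like (2389), enterocyte-like (2006, led by APOA4, FABP2 and UGT2B17), transit-amplifying (TA)-like (1774), LYZ+ enterocyte-like (311), goblet-like (221, with SST and GCG also among its leading genes), enteroendocrine-like (194) and a placental-gene cluster named FGEC-like in the study's terms (73). The other clusters, 3 in number, stayed unnamed: cluster 1 (3046 cells, led by S100A9, ANKRD37 and CCL20), cluster 5 (670, led by GNRH2) and cluster 6 (542, led by AC008764.8). The names were rebuilt here, and the ISC-like cluster need not hold the same cells as the study's stem cell-like group. The LYZ+ enterocyte-like name rests on 3 of 5 markers, and that cluster was led by SLURP1, PSORS1C2 and CALML5. Different plasma protein genes were highest in different clusters, as the map of levels by cluster shows. By the mean of the 2 controls, FGB, FGG, ITIH2 and APOH were highest in ISC-like cells, AFP, SERPINA1 and TTR in enterocyte-like cells, ALB in cluster 1, and FGA and SERPINA6 in cluster 6.

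FGG was high at the stem and proliferative end. It stood at 203, 181 and 106 CPM in ISC-like cells of control 1, control 2 and LPS, at 141, 135 and 70.6 in TA-like cells, and at 34.8, 35.0 and 43.1 in enterocyte-like cells. The 2 controls did not overlap between ISC-like and TA-like cells or between TA-like cells and the next cluster. ITIH2 followed the same order, with 59.2 and 36.7 CPM in ISC-like, 43.0 and 41.5 in TA-like and 1.93 and 1.05 in enterocyte-like cells of the controls, the first pair of clusters overlapping. APOH stood at 144 and 119 CPM in ISC-like cells of the controls, apart from all other clusters, with goblet-like (76.0 ± 5.47) and U-HT29-like cells (71.9 ± 3.25, n = 2 each) next.

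In this clustering TTR and SERPINA1 were high at the absorptive end. TTR stood at 1123, 924 and 955 CPM in enterocyte-like cells, at 649, 492 and 395 in LYZ+ enterocyte-like cells and at 207, 239.5 and 204 in ISC-like cells. The LYZ+ enterocyte-like cluster held only 80, 192 and 39 cells in control 1, control 2 and LPS. SERPINA1 stood at 2883, 2705 and 2697 CPM in enterocyte-like cells, and its next 4 clusters overlapped between 1581 and 1696 on the control mean. SERPINA1 was not confined to absorptive cells. Goblet-like cells (61, 81 and 79 cells) were at 1801, 1165 and 1251 CPM, against 538, 459 and 641 in U-HT29-like cells. Both genes were separated from their next cluster in the controls.

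ALB and AFP, although neighbours, were highest in different clusters here on the control mean, though in the same cluster in 2 of the 5 clusterings described below. ALB was at 538, 439 and 611 CPM in cluster 1, but the order of clusters could not be resolved, even at the top. Cluster 6 was at 92.4 CPM in control 1, 654 in control 2 and 806 in LPS, above cluster 1 in control 2 and LPS. TA-like (355 ± 64.7) and ISC-like cells (308 ± 22.2, n = 2 each) overlapped with cluster 6. Enterocyte-like cells were lower in ALB CPM than cluster 1, at 164, 136 and 257 CPM. Single cells weighed on these levels: in control 1, 375 of 3220 ALB UMIs of cluster 1 came from 1 cell. In LPS, 230 of 674 of enterocyte-like cells did. Without thinning, 19.6%, 11.4% and 13.3% of enterocyte-like cells had an ALB UMI, against 15.2%, 14.4% and 12.8% of cluster 1. That share was thus higher in enterocyte-like cells in control 1 and LPS. In LYZ+ enterocyte-like cells it was 31.25%, 53.1% and 12.8%. AFP was at 629, 398 and 835 CPM in enterocyte-like cells, but its controls overlapped with those of cluster 6 (472 ± 130) and cluster 1 (438 ± 127, n = 2 each), and ISC-like cells were at 143, 192 and 194 CPM. For SERPINA6, the 4 clusters at the top overlapped, between 12.9 and 16.3 CPM on the control mean, and for FGA and FGB the first pair of clusters overlapped.

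**Figure D3:**
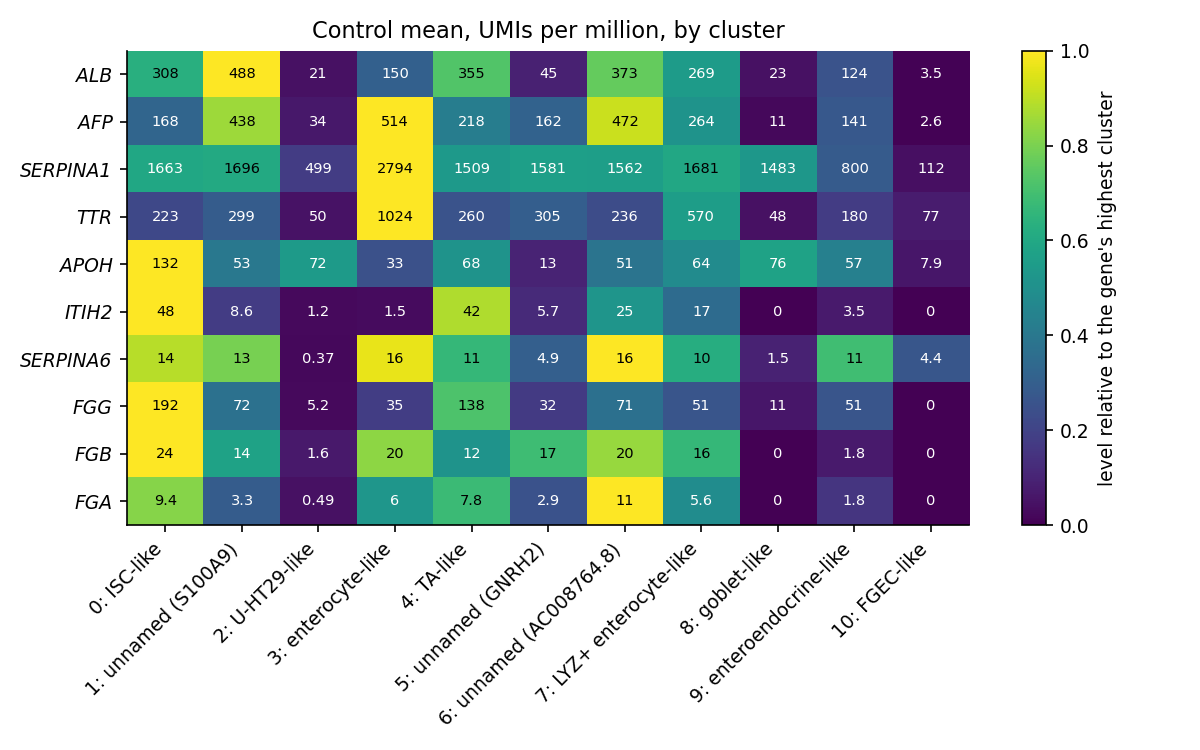
Mean CPM of the 2 controls for each gene (rows) in each of the 11 clusters (columns), printed in the cell and coloured relative to the gene's own highest cluster. FGG, ITIH2 and APOH peak in ISC-like cells, and TTR, SERPINA1 and AFP in enterocyte-like cells.

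Where a gene was highest depended on how cells were clustered for some genes and not for others. Over 5 clusterings (the one above, one with the 10 genes left in, one at a higher resolution, one without integration and one without removal of doublets), FGG and ITIH2 were highest in ISC-like cells in 5 of 5, and TTR in enterocyte-like cells in 5 of 5. FGA, FGB, SERPINA6 and APOH were highest in ISC-like cells in 4 of 5. ALB and SERPINA1 were highest there in 2 of 5 and AFP in 1 of 5, SERPINA1 being at 3109 CPM in ISC-like cells with the 10 genes left in and at 2921 without removal of doublets. With the 10 genes left in the clustering, ALB in ISC-like cells was at 2215 CPM on the control mean in place of 308, and without removal of doublets it was highest there too, at 576 CPM. The clustering with the 10 genes left in grouped cells partly on the values read here, so its place in these counts is no support. The ISC-like cells were also not 1 fixed set: 3246 cells in the clustering above, 1313 with the 10 genes left in and 660 without removal of doublets. The clusters are made of the same cells in which the genes were read, so no test was made of the differences between them.

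The phase called for each Caco-2-line cell from cell cycle genes gave further differences between the genes. ITIH2 was at 44.2, 38.5 and 32.02 CPM in cells called S in control 1, control 2 and LPS, and at 21.7, 13.2 and 17.5 in cells called G1. FGG was also highest in S, at 136, 127 and 78.9 CPM against 101, 95.8 and 65.9 in G1. In cells called G2 or M, FGG was close to G1, at 106, 97.7 and 58.7 CPM. TTR was highest in G1 in every library, at 542, 457 and 451 CPM against 314, 264 and 310.0 in S, and so were AFP, SERPINA1, SERPINA6 and FGB. ALB was highest in S in both controls (380.1 and 482 CPM) but in G1 in LPS (439).

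The label of the group was checked against other liver genes. Of 22 markers of hepatocyte metabolism, 21 were found in the tables and 8 reached 1 CPM in the summed libraries. The leading ones of these 8 were the subunits of the asialoglycoprotein receptor, ASGR1 at 89.0, 68.7 and 66.0 CPM and ASGR2 at 25.8, 25.9 and 24.8. Among all 33528 genes other than the members of the group, 13276 reached 1 CPM. The count of 8 was not tested against that background and is description only. CYP7A1, CYP2E1, CYP3A7 and TAT, enzymes of bile acid, drug and tyrosine metabolism, stayed below 1 CPM, and F9, coagulation factor IX, had 0 UMIs in all 3 libraries. The levels of these markers in the few cells richest in the plasma protein genes were not read. Of 66 other plasma protein genes, 41 reached 1 CPM, among them APOA1 at 5496, 4048 and 3558 CPM and AHSG (fetuin-A, a fetal serum protein) at 745, 579 and 700.1. This count was likewise not tested against the background. HNF4A, a factor of liver and gut, was at 123, 95.5 and 123 CPM.

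Within Caco-2-line cells the genes tended to occur together. Pearson correlations of log UMIs were computed over 3929, 3655 and 3388 thinned Caco-2-line cells, which share a library and, after thinning, a depth. In counts as sparse as these a weak correlation is no finding. Of the 45 pairs, 40 were positive in all 3 libraries, 2 were negative in all 3, and 15 were at or above 0.1 in all 3, with medians of 0.0672, 0.107 and 0.110. Pairs of other genes were not counted, and these genes were selected on their joint presence in these cells, so the counts are description only. Without thinning, 29 pairs were at or above 0.1. ALB and AFP had the highest r of the 45 pairs, at 0.456, 0.524 and 0.532, and there were 2.71, 3.11 and 3.23 times as many cells with both as their separate shares give. On that second measure sparser pairs were higher, FGA with FGB at 4.76, 3.34 and 5.78 and ITIH2 with APOH at 3.74, 3.63 and 4.19. Of the cells with an ALB UMI, 62.5%, 55.4% and 61.9% also had an AFP UMI. Of the cells with an AFP UMI, 28.5%, 40.3% and 33.3% had an ALB UMI.

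ALB and APOH followed, with r of 0.281, 0.333 and 0.330, although the genes lie on different chromosomes. ITIH2 and APOH reached 0.289, 0.189 and 0.209, AFP and SERPINA1 0.249, 0.253 and 0.303, and AFP and TTR 0.258, 0.209 and 0.293. The neighbours SERPINA1 and SERPINA6 reached 0.113, 0.157 and 0.148. The 3 fibrinogen chains gave low correlations with each other, FGB with FGG 0.109, 0.236 and 0.10, FGA with FGG 0.114, 0.0964 and 0.0993, and FGA with FGB 0.0672, 0.0534 and 0.124, yet FGB and FGG were found together in 46, 62 and 32 cells where their shares give 17.8, 18.0 and 12.2. FGG and TTR were the lowest pair, at -0.0910, -0.0523 and -0.0294, with 146, 155 and 108 cells holding both against 199, 186 and 124 from their shares. Leaving out the widespread SERPINA1 and TTR, 5.52%, 6.16% and 5.17% of cells had UMIs of 3 or more of the other 8 genes, and 0.534%, 0.876% and 0.767% of 5 or more.

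**Figure D4:**
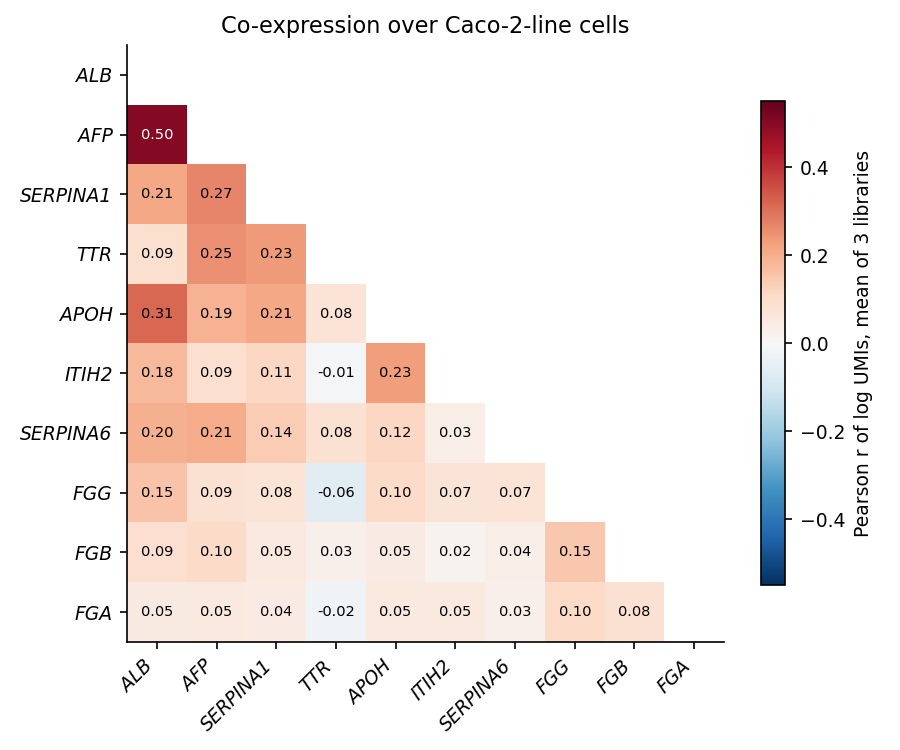
Pearson r of log UMIs for each of the 45 pairs, as the mean of control 1, control 2 and LPS, over thinned Caco-2-line cells. ALB with AFP gives the darkest field, and TTR with FGG, FGA and ITIH2 the fields below 0.

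The thinned Caco-2-line cells were then divided by whether they held ALB and AFP. Both genes were seen in 258, 262 and 216 cells (6.57%, 7.17% and 6.38%), ALB without AFP in 3.95%, 5.77% and 3.93%, and AFP without ALB in 16.5%, 10.6% and 12.8%. Of the cells with AFP but no ALB UMI, 39.7%, 36.3% and 39.0% lay in the enterocyte-like cluster, against 25.2%, 8.78% and 18.1% of cells with both. APOA4, an apolipoprotein of chylomicrons, was at 3208, 3348 and 3539 CPM in cells with AFP alone and at 2064, 659.9 and 1418 in cells with both. Other plasma protein genes were also higher in cells with both. APOH was at 269, 321 and 284 CPM in them against 62.5, 46.3 and 42.1 in cells with neither. FGG was at 208 (173 to 249), 251 (212 to 295) and 214 (175 to 259) CPM in cells with both, and at 104 (96.4 to 112), 94.0 (86.6 to 102) and 54.4 (48.6 to 60.7) in cells with neither. In cells with ALB but no AFP UMI it was at 258 (208 to 317), 145 (113 to 184) and 110.3 (75.9 to 155) CPM. These intervals cover counting error within 1 library each, so they are no test of LPS. A cell without a UMI at this depth may still express the gene at a low level.

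Over the same cells, each gene was correlated with the mean standardised level of the other 9. ALB gave 0.396, 0.475 and 0.476, and AFP 0.361, 0.450 and 0.504. By its lowest value ALB lay above each of the 4349 genes compared, which had a UMI in at least 5% of these cells in every library. Those genes were scored against the mean of all 10. The 10 were selected on their joint presence in these cells, so such ranks are description and no support. SERPINA1 gave 0.341, 0.315 and 0.339, and APOH 0.309, 0.344 and 0.331. FGG gave 0.131, 0.225 and 0.179, and FGA, the sparsest, 0.0683, 0.142 and 0.0958, ranking 55th by its lowest value. The order runs partly with how many cells hold a gene, FGA having a UMI in 1.32%, 1.26% and 1.27% of these cells. The 10 other genes most like the group, by the lowest of 3 correlations with the mean of all 10, were AHSG (0.363 to 0.376), APOA1 (0.302 to 0.322), RBP4 (0.267 to 0.268), VTN (0.258 to 0.320), APOE (0.246 to 0.298), GPC3 (0.231 to 0.255), APOB (0.191 to 0.236), APOC1 (0.188 to 0.233), APOC3 (0.181 to 0.235) and SPINK1 (0.169 to 0.226). Of these 10, 8 were on the list of 66 other plasma proteins, whereas GPC3, a glypican of fetal liver, and SPINK1, a trypsin inhibitor, were not. Of the 66, 20 were among the 4349 genes compared. Of 23 transcription factors of liver and gut, 8 were among the genes compared. PROX1, a factor of the embryonic liver and a marker used here to name ISC-like cells, gave only 0.0640 in control 1 and 0.0980 in LPS. Values as weak as these are no finding.

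The comparison of LPS with control asked whether a day of endotoxin changed these genes, several of which are acute phase genes in the liver. UMIs were summed per library and fitted with edgeR (quasi-likelihood) across all genes, with 2 controls, 1 LPS library and 1 residual degree of freedom, the LPS library being assumed to vary like the controls. Of 16135 genes tested, 17 had an adjusted p under 0.05, which is 0.105% of genes, and 0 of the 10 plasma protein genes did. The 17 were made up of 11 that were higher in LPS (0.0682%) and 6 that were lower (0.0372%). At an unadjusted p under 0.05 there were 751 genes (4.65%), 1 of the 10 among them, and DESeq2 called 6 genes, also without a member.

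FGG gave the smallest p of the 10. At 94.8 and 85.9 CPM in the controls and 55.8 in LPS, its log2 fold change was -0.78 ± 0.15 (SE), with an unadjusted p of 5.73e-05 and a Benjamini-Hochberg adjusted p of 0.0514 by edgeR, just on the far side of the threshold. The call depended on the setting: the adjusted p was 0.0226 with RLE size factors, 0.000845 without the filter on low counts, 0.00307 over Caco-2-line cells alone and 0.0433 with the cell minimums of control 1 in all libraries, but 0.0690 over all barcodes, 0.107 without removal of doublets and 0.137 by DESeq2. The fold change kept its sign with either control left out, at -0.68 and -0.88. Fewer cells with the gene and less RNA per cell cannot be told apart in the sums.

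By cluster, the FGG level in LPS lay below both controls in 5 of 11 clusters, above both in 2 and between them or level in 4. This count does not set FGG apart: TTR lay below both controls in 7 clusters, and APOH, FGA, FGB, ITIH2 and SERPINA1 in 4 each. SERPINA6 lay below both in 2 clusters and ALB and AFP in 1 each, AFP being above both in 7. FGG in LPS lay below both controls in ISC-like (203 and 181 against 106 CPM), TA-like (141 and 135 against 70.6) and cluster 1 cells (78.2 and 65.2 against 50.7), and above both in enterocyte-like cells (34.8 and 35.0 against 43.1). After thinning, 14.02% and 15.2% of Caco-2-line cells had an FGG UMI in the controls and 11.2% in LPS. The difference between clusters was not tested, since LPS has 1 library.

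The other 9 genes gave adjusted p of 0.956 or above by edgeR. ALB was at a log2 fold change of 0.16 ± 0.15 (SE), AFP at 0.24 ± 0.20 and SERPINA6 at 0.34 ± 0.18, the 3 genes whose LPS value lay above both controls, as did that of 48.5% of all genes tested. FGB at -0.16 ± 0.17 and APOH at -0.19 ± 0.15 lay, with FGG, below both controls, as did 23.5% of all genes. FGA (-0.02 ± 0.24), SERPINA1 (-0.15 ± 0.18), ITIH2 (-0.31 ± 0.20) and TTR (-0.25 ± 0.18) lay between the controls. The median log2 fold change of the 10 was -0.15, against 0.01 over all genes. With 1 LPS library, a p above the threshold does not show that a gene stayed the same.

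**Figure D5:**
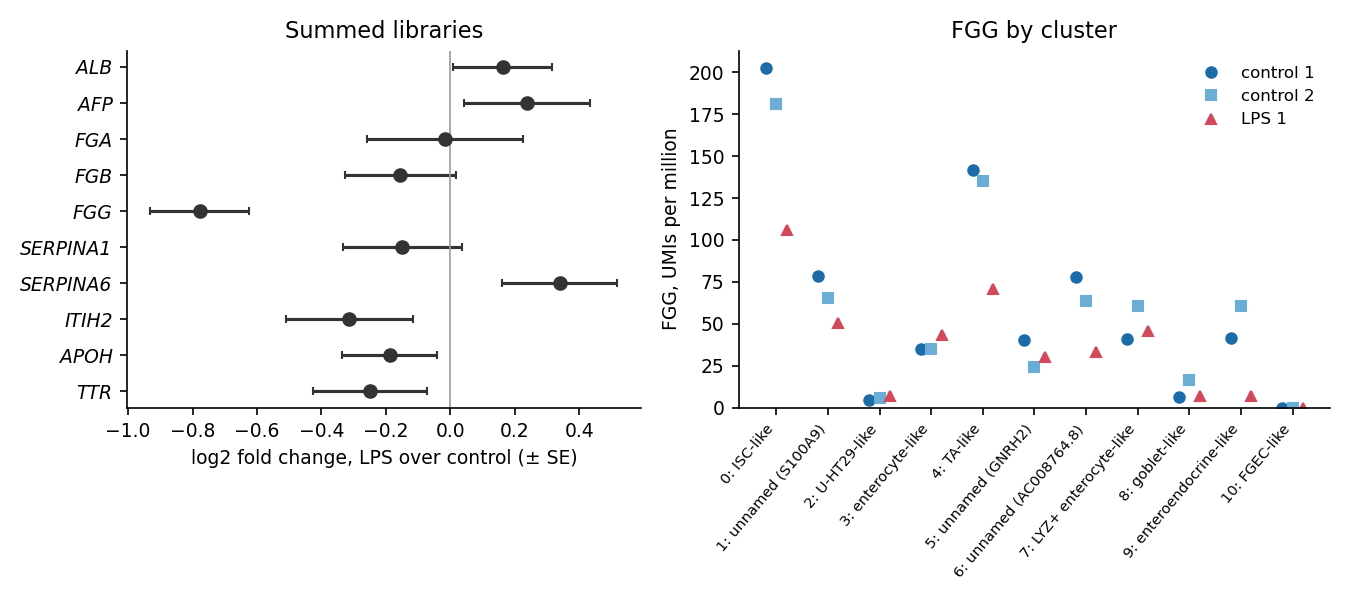
Left, log2 fold change of LPS over control for each gene (x) with its SE as bars, from edgeR on summed UMIs (2 controls, 1 LPS library). Right, FGG in CPM (y) in each cluster for control 1, control 2 and LPS; LPS lies under both controls in ISC-like and TA-like cells and above both in enterocyte-like cells.

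Related genes were read in the same test. Of 49 other plasma protein genes tested, 0 were called, 5 had an unadjusted p under 0.05, against 4.65% of all genes, and the median log2 fold change was -0.11. Those with the largest absolute change among the 5 were GC (vitamin D-binding protein, 0.601 and 0.451 CPM in the controls and 0.0490 in LPS), SERPIND1 (heparin cofactor, -0.64), APOA1 (-0.51) and RBP4 (-0.50). Of 14 genes of the acute phase and the LPS response that could be tested, 0 were called and 2 had an unadjusted p under 0.05, the chemokines CCL20 (-0.93) and CXCL8 (-1.04). IL6, the main inducer of fibrinogen in liver, had 0 UMIs in all 3 libraries, SAA1 and CRP were at 0 or below 0.1 CPM in each, and TLR4, the receptor of LPS, was at 0.200, 0.0820 and 0.0490 CPM. Of 16 hepatocyte metabolic genes, 23 transcription factors and 19 genes that lie beside the 10 members, 0 were called in each list, with 0, 2 and 2 at an unadjusted p under 0.05.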

How the data were processed

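Single-cell 3′ RNA libraries (10x Genomics Chromium) of 2 control Transwells and 1 LPS-treated Transwell were analysed. The authors deposited raw UMI counts per gene and cell barcode, made with Cell Ranger (3.1.0 in the file headers) on GRCh38. The study's list of software names a later version of Cell Ranger.

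Following the study's methods, cells were kept from 2250 UMIs and 770 genes (control 1) or 1500 UMIs and 700 genes (control 2, and LPS, for which no minimum is given in the sources used here), with at most 20% mitochondrial UMIs. Scrublet's own threshold marked 0, 0 and 1 cells, so the 6% of cells with the highest doublet scores were removed (296, 318 and 310). Lines were called per library by a 2-component mixture on the log ratio of UMIs over the study's line-specific gene lists, and cells with a posterior between 0.05 and 0.95 were left unassigned. Clusters came from SCTransform per library with mitochondrial share and cell cycle difference regressed out, anchor integration on 3000 features (Seurat 5.3.0), 50 principal components, 15 neighbours and Leiden clustering at a resolution of 0.5 (leidenalg 0.10.2). The 10 genes were left out of the lists and of the features, and clusters were named from markers, most of which come from the study and were chosen there on the control libraries. For co-expression, cells were thinned to 2250 UMIs, and 0, 456 and 753 kept cells below that were left out of it.

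LPS was compared with control by edgeR 4.0.16 (TMM, low-count filter, quasi-likelihood test, Benjamini-Hochberg adjustment over all genes tested) on UMIs summed per library, with DESeq2 1.42.0 as an alternative. The fit was run on simulated counts with known changes. All simulated libraries were drawn with the fit's own dispersion. The simulation therefore could not test whether the LPS library varies like the controls. Intervals are exact, at 95%. Depth differs between libraries, so rare genes are measured more precisely in control 1. Cells are not replicates, and no p was taken from them.

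Genes named are the 10 members, the 10 genes most like them and, from each list, those named by size of change or level. The cluster of highest member level was taken as the ISC-like one, where 4 of the 10 were highest. The members, lists and tests were chosen with earlier results of these data known. Gene positions are from GENCODE v44 and promoter windows from RefSeq, both on GRCh38; all 10 windows of 8 genes matched the genome sequence. Alternatives covered normalization, filters, doublets, line lists, clustering and depth, and each control left out. Some genes are not reported here.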

Additional observations from a re-analysis of the deposited data

Results flagged for a closer look

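In 3 of the 20 pairs of cell groups looked at (each of the 10 genes in the lines, and in ISC-like and enterocyte-like cells), LPS lay below both controls in 1 group and above both in the other, and the difference was not tested in any of them, since LPS has 1 library. The share of all genes with such a pattern was not computed, so the count of 3 is description only. In the lines, FGA, FGB, ITIH2 and SERPINA6 could not be flagged, having 3 or fewer UMIs in HT29-line cells of at least 1 library. FGG was at 110.9 CPM in control 1, 103 in control 2 and 66.7 in LPS in Caco-2-line cells, the LPS value below both controls, and at 3.41, 3.02 and 5.90 CPM in HT29-line cells, the LPS value above both. The HT29-line values rest on 14, 12 and 19 UMIs.

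FGG was at 203 CPM in control 1, 181 in control 2 and 106 in LPS in ISC-like cells, against 34.8, 35.0 and 43.1 CPM in enterocyte-like cells. FGB was at 18.8 CPM in control 1, 29.1 in control 2 and 17.5 in LPS in ISC-like cells, against 21.3, 18.5 and 25.9 CPM in enterocyte-like cells. The FGB values rest on 125, 165 and 83 UMIs in ISC-like cells and 99, 53 and 68 in enterocyte-like cells, and in ISC-like cells LPS lay closer to control 1 than the controls lay to each other. In both genes LPS lay below both controls in the first cluster and above both in the second. Groups of 2 controls and 1 LPS library were too small to look for outlying libraries.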

How the results depend on the processing

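Of the summary values, 35 stayed within the spread or within 1.5 times under an alternative and 21 moved, and of the values of single genes 188 stayed, 15 moved, 4 passed the threshold only under the alternative (FGG each time) and 3 changed sign. With 2 controls, leaving 1 out always shifts a mean by less than their SD, so such levels and correlations could only count as stayed. Fold changes with a control left out counted as stayed unless the sign changed. The counts that stayed include these values, so they overstate stability. Genes called between LPS and control numbered 17, against 46 without the low-count filter, 6 by DESeq2, 34 over Caco-2-line cells only and 11 without removal of doublets. Members called numbered 0, against 1 with RLE size factors, 1 without the low-count filter, 1 over Caco-2-line cells and 1 with the minimums of control 1 throughout. AFP, at 0.24, gave -0.056 without control 2 and 0.59 without control 1, and FGA, at -0.02, gave 0.011 over Caco-2-line cells, 0.16 without control 1 and -0.18 without control 2. With either control left out there is no residual degree of freedom and no test.

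The Caco-2-line to HT29-line ratio of the summed members was 4.58, against 6.05 with short marker lists and 3.96 without removal of doublets. SERPINA1 had the highest level of the members in both lines, so it weighs most in this ratio. ALB in ISC-like cells was at 308 CPM, against 2215 with the members clustered on, 524 at a resolution of 0.8, 386 without integration and 576 without removal of doublets. FGG there was at 192 CPM, against 418, 329.8 and 407 under the first, the second and the last of these. The ISC-like name covered a different set of cells in each clustering, so these are not levels of 1 fixed population. It held 3246 cells in the main clustering, 1313 with the members clustered on and 1031 at a resolution of 0.8. Without integration it held 2374 cells, and without removal of doublets 660. Members highest in ISC-like cells numbered 4, against 9 with the members clustered on and 8 without removal of doublets. Without thinning, the median correlation was 0.171 in place of 0.0872 on the control mean, and 29 pairs in place of 15 reached 0.1. Leaving out the cell richest in a gene was added after seeing the data. The cause of these shifts was not tested.

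No paired analysis was possible, since there is 1 LPS library and no label pairs it with a control. The depth limits FGA, FGB, SERPINA6 and ITIH2 most, which had from 0 to 6 UMIs in HT29-line cells of a library.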
